A study of Homo sapiens with 24 samples.

Results

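U4 and U5 are small nuclear RNAs (snRNAs) of the major spliceosome, and 7 genes for them were followed here: RNU4-1 and RNU4-2 for U4, and RNU5A-1, RNU5B-1, RNU5D-1, RNU5E-1 and RNU5F-1 for U5. They were picked by name among the small RNA features that are not annotated as long non-coding RNA (lncRNA), and all 7 names were found among the 175946 features of the small RNA table, with 1 feature each. The same features carry a window in the chromatin accessibility (ATAC) table. The libraries came from HEK293, an established human embryonic kidney line labelled wild type, in which eGFP (GFP, the control), lamin A (LMNA), lamin B1 (LMNB1) or lamin B2 (LMNB2) was overexpressed. Lamins are the intermediate filament proteins of the nuclear lamina. Each group had 3 replicates per assay, so that 12 small RNA libraries and 12 ATAC libraries were compared, and all 12 of an assay carry the same batch number. The vector, promoter and duration of overexpression are not given in the sources used here. The labels do not say whether replicates were separate cultures, and p-values measure only the spread between these samples.

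Both RNAs work in the same particle. U4 pairs with U6 snRNA, whose catalytic elements it holds apart, and the U4/U6 pair joins the U5 particle to form the tri-snRNP that enters the spliceosome. U4 is unwound from U6 and leaves before catalysis, whereas U5 stays, and its conserved loop holds the ends of the exons that are joined. Both are transcribed by RNA polymerase II from snRNA promoters, capped, and assembled with a ring of Sm proteins. Each is made from several gene copies that differ in sequence, which are called variants for U5.

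Total counts (M stands for mega) were 132.5 M to 195.1 M per small RNA library and 156.0 M to 290.2 M per ATAC library. The overexpressed genes marked their groups: LMNB1-DT, beside LMNB1, had 18.2 ± 0.926 CPM (scaled counts per M counts of the library; SD, n = 3) in LMNB1 and 0.0812 ± 0.026 in GFP, and MIR7108, inside LMNB2, had 18.6 ± 1.22 in LMNB2 and 0.0123 ± 0.0144 in GFP. Lnc-SEMA4A-1, which overlaps LMNA, was marked in the ATAC libraries of LMNA, at 4470 ± 802 CPM against 11.1 ± 2.16 in GFP. The miR-17-92 cluster, expressed in proliferating cells, summed to 23.5 to 64.5 CPM in every small RNA library. Markers of other tissues were low: MIR122 (liver) reached 0.0588 CPM, MIR142 (blood) 0.0643 CPM, MIR375 (endocrine) 0.173 to 0.896 CPM, and MIR1-1, MIR133A2 and MIR124-3 (muscle and neurons) at most 1 count in a library. Small RNA scaling factors ran from 0.631 to 1.31 in GFP and from 0.878 to 1.16 in the lamin groups, so the control was the most uneven group. The mitochondrial share of ATAC counts was 39.9% to 47.5% in GFP, 39.4% to 44.1% in LMNA, 32.8% to 34.1% in LMNB1 and 24.5% to 30.7% in LMNB2.

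The genes sit at 4 loci in GRCh38, the build named in the submitters' processing notes, and 6 of the 7 have another U4 or U5 gene nearby. The feature intervals extend up to 25 bp beyond the RefSeq gene on each side. RNU4-1 (chromosome 12, 120293072 to 120293262) and RNU4-2 (120291738 to 120291928) lie on the minus strand, and their intervals are 1143 bp apart. RNU5A-1 (chromosome 15, 65296026 to 65296191) and RNU5B-1 (65304652 to 65304817) lie on the plus strand, 8460 bp apart. RNU5D-1 (chromosome 1, 44731044 to 44731193) and RNU5F-1 (44721761 to 44721927) are on the minus strand, 9116 bp apart. RNU5E-1 (chromosome 1, 11908129 to 11908297, plus strand) has no other U4 or U5 gene of this set nearby. RefSeq gives 145 bp for both U4 genes, 117 bp for RNU5A-1 and RNU5B-1, 102 bp for RNU5D-1, 121 bp for RNU5E-1 and 118 bp for RNU5F-1. All 7 are non-coding genes without coding exons or UTRs. RNU5B-1, RNU5D-1 and RNU5F-1 overlap no other feature of the table.

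Several lncRNA features of the table consist almost wholly of these snRNA counts. Both U4 genes made up 98.5% of the counts over lnc-PLA2G1B-2. RNU5A-1 made up 99.9% of the counts over lnc-PARP16-2, which is annotated on the opposite strand. The 5 lncRNA features over RNU5E-1, named ENSG00000285646.2 or AL021155.2, drew at least 92.4% of their counts from RNU5E-1. The counts of these lncRNA features are thus mostly those of the snRNA inside. Whether the counting used strand is not given in the sources used here.

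U5 drew far more counts than U4 in the libraries. Whether the libraries recovered the 2 RNAs equally well was not tested, so these counts are not amounts of RNA in the cell. Scaled counts per kilobase of interval (CPM per kb), averaged over the 12 libraries, were 3580 for RNU5E-1, 2270 for RNU5B-1, 1090 for RNU5A-1, 612 for RNU5D-1, 95.2 for RNU5F-1, 57.0 for RNU4-2 and 21.2 for RNU4-1. The highest was 169-fold above the lowest. Each gene was above the next in the order in 12 of 12 libraries, although the ranges over libraries overlapped between RNU5E-1 and RNU5B-1 and between RNU5A-1 and RNU5D-1. The median of the 3329 tested features that are not lncRNAs was 1.57 CPM per kb. Of those features, 98.9% lay below RNU5E-1 and 74.5% below RNU4-1. Variants of U5 and both U4 genes are close in sequence, how reads that match several copies were counted is not given in the sources used here, and the split between copies is uncertain for that reason.

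The genes stood in another order in chromatin. ATAC density in the window on each gene (400 to 441 bp long) was 11.7 CPM per kb for RNU4-2, 10.6 for RNU5F-1, 8.56 for RNU5E-1, 8.21 for RNU5B-1, 6.87 for RNU5A-1, 4.89 for RNU5D-1 and 4.66 for RNU4-1. The span was 2.52-fold. All neighbours in this order overlapped over the 12 libraries. RNU5F-1, the U5 gene with the fewest small RNA counts, had the most accessible window of the U5 genes. Each window was above at least 94.9% of the 12320 tested windows on features that are not lncRNAs, whose median was 0.12 CPM per kb.

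No U4 or U5 gene passed the test between groups in small RNA (edgeR quasi-likelihood, Benjamini-Hochberg adjusted p under 0.05 over 33893 tested features). The count was 0 of 7 for LMNA against GFP, where 0.0% of all features passed, 0 of 7 for LMNB1, where 0.0384% passed, and 0 of 7 for LMNB2, where 2.66% passed. It was also 0 of 7 in the joint test of the 4 groups, passed by 1.68% of features, and in the joint test of the 3 lamins, passed by 1.93%. An unadjusted p under 0.05 was found for 1 of 7 genes, RNU5F-1 in LMNB2, where 19.9% of all features had one, and for 0 of 7 in the other comparisons. DESeq2 called 0 of 7 in each of these comparisons too. All 7 had at least 433 counts in every small RNA library, and all 7 passed the filter on low counts in both assays. The 3 comparisons with GFP share the GFP libraries. In such bulk libraries fewer cells with an RNA and less of it per cell cannot be told apart.

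**Figure D1:**
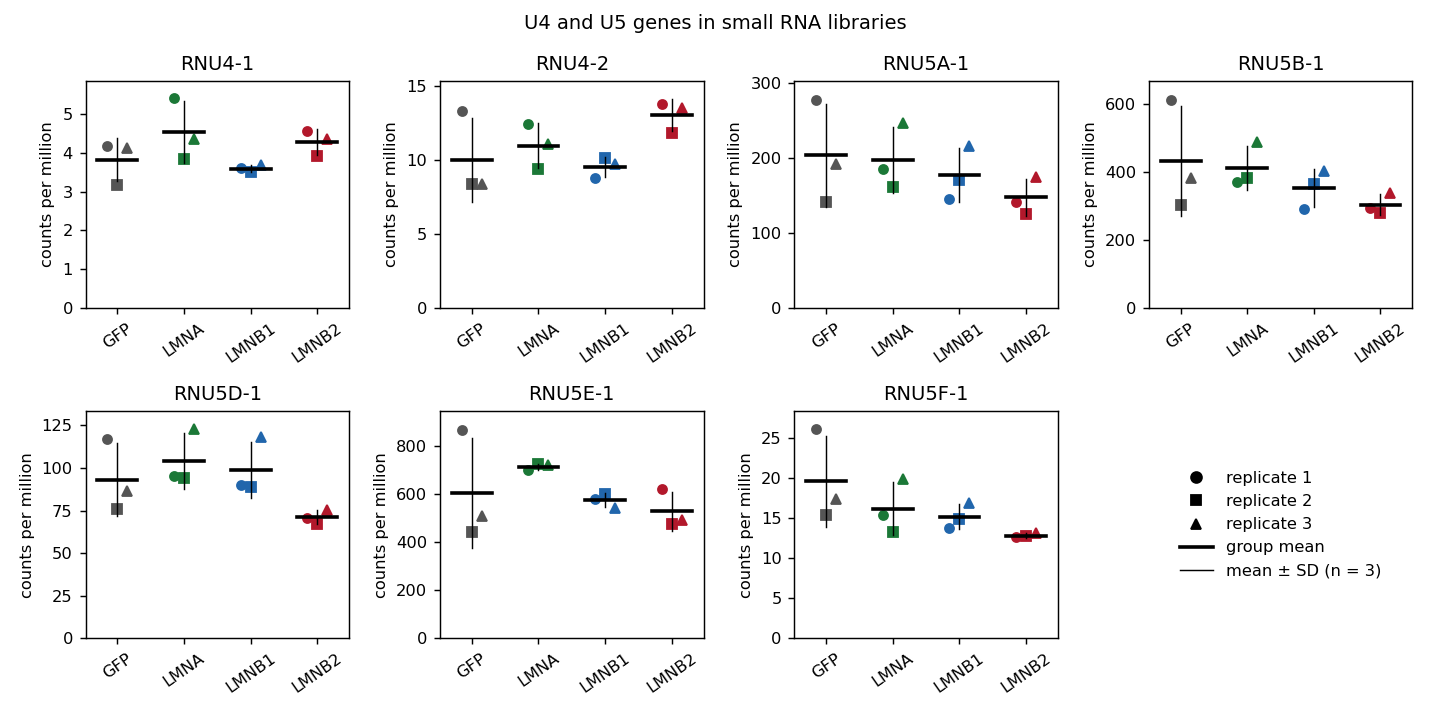
Scaled small RNA counts in CPM (vertical axes, from 0, a different range for each gene) of the 7 U4 and U5 genes in GFP, LMNA, LMNB1 and LMNB2 libraries. Symbols are replicates, thick bars group means and thin lines mean ± SD (n = 3). In every U5 panel GFP replicate 1 is the highest GFP library, and for RNU5D-1 and RNU5F-1 the 3 LMNB2 libraries are the lowest of the 12.

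RNU4-2 supplied most of the U4 counts. Its level was 13.3, 8.36, 8.36 CPM in GFP replicates 1 to 3, 12.4, 9.42, 11.1 CPM with LMNA, 8.78, 10.1, 9.74 CPM with LMNB1, and 13.8, 11.8, 13.5 CPM with LMNB2. All 3 LMNB2 libraries lay above GFP replicates 2 and 3, and they spanned GFP replicate 1. The log2 fold change of LMNB2 against GFP was 0.38 ± 0.22 (SE), with a 95% interval of −0.08 to 0.84 and an adjusted p of 0.343. In LMNA and LMNB1 the log2 fold changes were 0.13 ± 0.22 and −0.07 ± 0.22.

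RNU4-1 was measured at 4.17, 3.18, 4.12 CPM in GFP, 5.40, 3.83, 4.34 CPM with LMNA, 3.60, 3.49, 3.67 CPM with LMNB1, and 4.55, 3.91, 4.36 CPM with LMNB2. Every lamin group overlapped GFP. The log2 fold changes were 0.24 ± 0.19 in LMNA, −0.09 ± 0.19 in LMNB1 and 0.16 ± 0.19 in LMNB2, with adjusted p of 0.683 to 0.949. Within a library RNU4-2 gave 67.0% to 76.2% of the U4 counts in GFP, 69.7% to 71.9% in LMNA, 70.9% to 74.4% in LMNB1 and 75.1% to 75.7% in LMNB2, and the GFP range holds those of all 3 lamin groups.

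RNU5E-1 and RNU5B-1 supplied most of the U5 counts. RNU5E-1 had 865, 440, 509 CPM in GFP, 699, 722, 718 with LMNA, 580, 599, 541 with LMNB1, and 620, 473, 490 with LMNB2. RNU5B-1 had 613, 302, 383 CPM in GFP, 370, 382, 488 with LMNA, 293, 365, 402 with LMNB1, and 295, 279, 340 with LMNB2. For both genes GFP replicate 1 was the highest of all 12 libraries and GFP replicate 2 was lower than every LMNA library. The GFP range held all 9 lamin libraries for RNU5E-1, whereas for RNU5B-1 LMNB1 replicate 1 and LMNB2 replicates 1 and 2 lay just below it. Against GFP the log2 fold changes of RNU5E-1 were 0.24 ± 0.27 in LMNA, −0.08 ± 0.27 in LMNB1 and −0.20 ± 0.27 in LMNB2. Those of RNU5B-1 were −0.07 ± 0.27, −0.29 ± 0.27 and −0.51 ± 0.27 (adjusted p = 0.317 in LMNB2).

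RNU5A-1 and RNU5D-1 were intermediate. RNU5A-1 had 278, 141, 192 CPM in GFP, 185, 162, 247 with LMNA, 146, 171, 216 with LMNB1, and 142, 126, 175 with LMNB2, with a log2 fold change of −0.46 ± 0.28 in LMNB2 (adjusted p = 0.37). Its groups overlapped. RNU5D-1 had 117, 75.8, 86.8 CPM in GFP, 95.4, 94.1, 123 with LMNA, 90.1, 88.7, 118 with LMNB1, and 70.4, 67.3, 75.4 with LMNB2. All 3 LMNB2 libraries of RNU5D-1 lay below the other 9, by a narrow margin over GFP replicate 2, and the log2 fold change was −0.39 ± 0.24 (adjusted p = 0.371).

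RNU5F-1, the U5 variant with the fewest counts, came closest to a call. It had 26.0, 15.3, 17.3 CPM in GFP, 15.3, 13.3, 19.8 with LMNA, 13.7, 14.9, 16.8 with LMNB1, and 12.6, 12.7, 13.1 with LMNB2. The LMNB2 libraries were the 3 lowest of the 12, by a narrow margin over LMNA replicate 2. The log2 fold change in LMNB2 was −0.61 ± 0.23, with a 95% interval of −1.10 to −0.12, an unadjusted p of 0.017 and an adjusted p of 0.156. Without GFP replicate 1 it was −0.36, with an adjusted p of 0.301, and with total counts as the only scaling −0.31. In LMNA and LMNB1 it was −0.27 ± 0.23 and −0.37 ± 0.23.

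In LMNB2 the U4 and U5 genes stood on opposite sides of 0. Both U4 genes had a positive log2 fold change and all 5 U5 genes a negative one, with a median of −0.39 over the 7 genes, −0.46 over U5 and 0.27 over U4, against −0.04 over all tested features. The 3 LMNB2 libraries lay below all 3 GFP libraries for 2 of 7 genes, RNU5D-1 and RNU5F-1, as they did for 10.2% of all tested features. They lay above all 3 for 0 of 7 genes, against 12.1% of features. Below all other 9 libraries they lay for the same 2 of 7 genes, and for 2.98% of features. In level per kb each of the 7 genes was above at least 96.3% of tested features, so most of that background is sparser. The U5 signs rest in part on GFP replicate 1: without it the log2 fold changes were −0.19 for RNU5A-1, −0.18 for RNU5B-1, −0.21 for RNU5D-1 and 0.14 for RNU5E-1. In LMNA 4 of the 7 log2 fold changes were positive, with a median of 0.13, and in LMNB1 1 was, with a median of −0.09, and the median over all features was −0.05 in both.

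The ratio of U4 to U5 counts within a library does not depend on scaling, and it set LMNB2 apart. U4 counts per 100 U5 counts were 0.921, 1.19 and 1.05 for GFP, 1.31, 0.965, 0.967 with LMNA, 1.1, 1.1, 1.04 with LMNB1, and 1.61, 1.64, 1.64 with LMNB2. The 3 LMNB2 libraries were above the other 9, which ran from 0.921 to 1.31. On the log2 scale the LMNB2 mean was above the GFP mean by 0.64, whereas LMNA and LMNB1 were above it by 0.03 and 0.04, less than the SD of 0.18 between GFP libraries. Counting error of the ratio, from the 1570 to 3045 U4 counts per library, was 0.026 to 0.037 on the log2 scale, and the SD between LMNB2 libraries was 0.01. The ratio is given as a description, without a test, and it compares counts and not amounts of RNA. Relative to summed U5, a background computed after the ratio had been seen, 9.67% of all tested features likewise had their 3 LMNB2 libraries above the other 9.

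**Figure D2:**
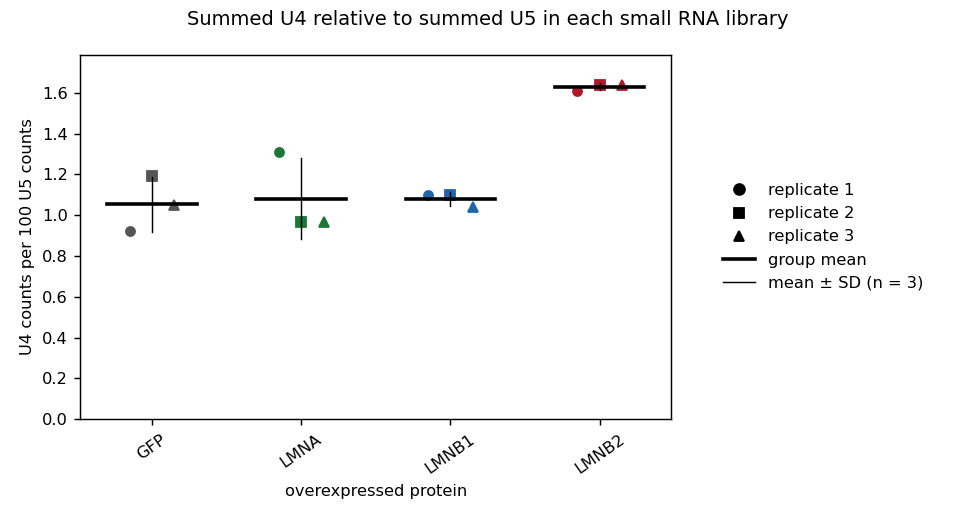
Summed counts of RNU4-1 and RNU4-2 per 100 summed counts of the 5 U5 genes (vertical axis, from 0) in each small RNA library, by overexpressed protein. Symbols are replicates, thick bars group means and thin lines mean ± SD (n = 3). The 3 LMNB2 libraries sit at 1.61 to 1.64 and the other 9 between 0.921 and 1.31.

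Neither sum behind the ratio separated LMNB2 from GFP. Summed U4 was 17.5, 11.5, 12.5 CPM in GFP, 17.8, 13.2, 15.4 with LMNA, 12.4, 13.6, 13.4 with LMNB1, and 18.4, 15.7, 17.9 with LMNB2. Summed U5 was 1900, 973, 1190 CPM in GFP, 1360, 1370, 1600 with LMNA, 1120, 1240, 1290 with LMNB1, and 1140, 957, 1090 with LMNB2. Summed U4 in LMNB2 spanned GFP replicate 1, and summed U5 in LMNB2 lay at the level of GFP replicates 2 and 3. The coefficient of variation of summed U5 was 35.8% in GFP and 7.15% to 9.09% in the lamin groups.

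Within the U5 pool, the share of RNU5F-1 was the only one that set all lamin libraries apart from GFP. Of the U5 counts in a library, RNU5E-1 gave 41.8% to 54.4%, RNU5B-1 25.8% to 32.3%, RNU5A-1 11.8% to 16.7%, and RNU5D-1 6.14% to 9.11%. RNU5F-1 gave 1.37%, 1.57%, 1.45% in GFP, 1.12%, 0.969%, 1.24% with LMNA, 1.22%, 1.21%, 1.30% with LMNB1, and 1.11%, 1.32%, 1.20% with LMNB2. All 9 lamin libraries were below the 3 GFP libraries, as was the case for 0.0944% of all tested features relative to summed U5. RNU5F-1 is itself part of that sum and varied with the other U5 genes (Pearson's r of 0.55 to 0.91). Most features are not part of it, so their share is not a like background and does not measure how unusual the pattern is. This share was singled out after its values were seen and carries no test. RNU5B-1 gave 31.0% to 32.3% in GFP and 27.1% to 30.6% in LMNA, without overlap, while LMNB1 (26.1% to 31.1%) and LMNB2 (25.8% to 31.1%) overlapped GFP. Relative to summed U5, 4.02% of features had their LMNA libraries all below GFP, with the same limit, since RNU5B-1 is part of the sum.

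**Figure D3:**
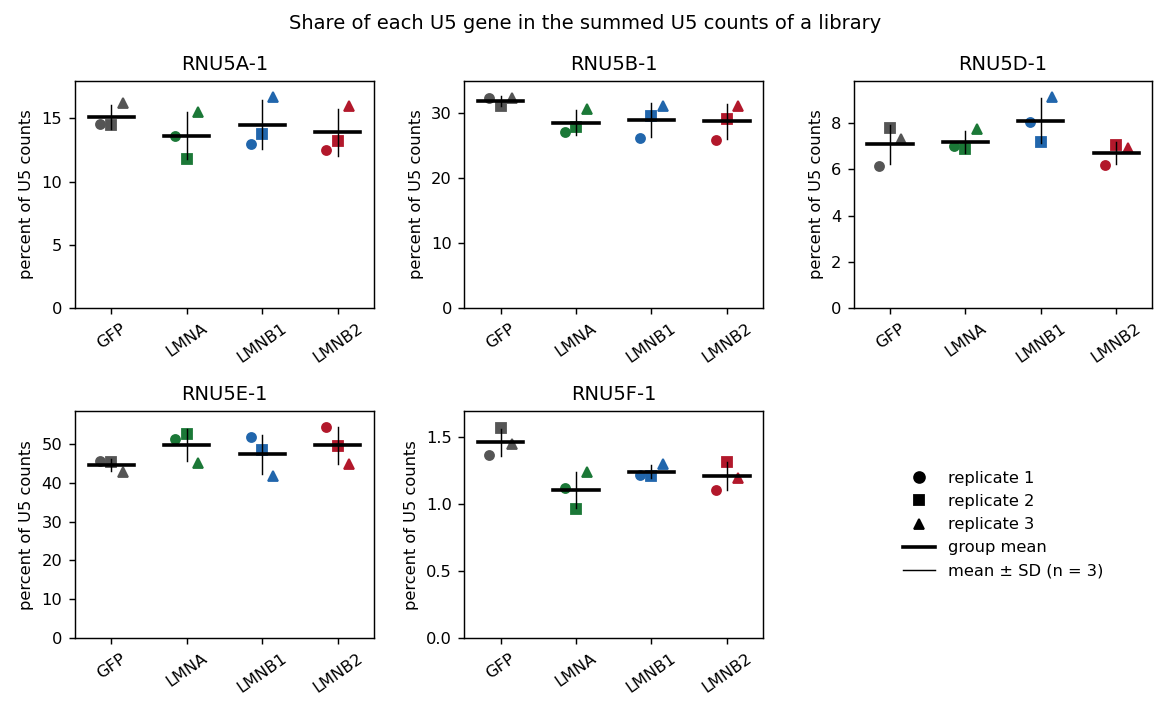
Percent of the summed U5 counts of a library that came from each U5 gene (vertical axes, from 0, a different range for each gene), by group. Symbols are replicates, thick bars group means and thin lines mean ± SD (n = 3). For RNU5F-1 the GFP libraries sit at 1.37% to 1.57% and the 9 lamin libraries at 0.969% to 1.32%.

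Across the 12 small RNA libraries the U5 genes varied together more than they did with U4. Pearson's r of log2 CPM was 0.55 to 0.96 for the 10 pairs of U5 genes, with a median of 0.80 and the highest value for the neighbours RNU5A-1 and RNU5B-1. It was 0.69 between the U4 genes and −0.08 to 0.44, median 0.20, for the 10 pairs of a U4 with a U5 gene. These values are descriptive, since all pairs share libraries and scaling. GFP replicate 1 was the highest of the 12 libraries for RNU5A-1, RNU5B-1, RNU5E-1 and RNU5F-1, and its weight on r was not tested. The uncertain split of reads between copies bears on pairs within U4 and within U5. The features most like the U4 mean were 3 SRP RNA features that contain both U4 genes (r = 0.983 to 0.985). Without features that overlap a U4 or U5 gene, a choice made after seeing them, the most alike were the H/ACA small nucleolar RNAs SNORA40 (r = 0.947), SNORA44 (0.899) and SNORA30 (0.899). The features most like the U5 mean were the transfer RNA genes tRNA-Arg-CCG-2-1 (r = 0.930), tRNA-Cys-GCA-14-1 (0.914) and tRNA-Arg-ACG-2-5 (0.908).

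The other snRNA genes of both spliceosomes gave 43 features, of which 40 were tested in small RNA. None passed in LMNA or LMNB1 with edgeR, where 1 and 2 had an unadjusted p under 0.05, and DESeq2 called 0 there too. In LMNB2 2 of 40 rose and 0 fell, where 2.66% of all features passed, and both were U1 variant genes on chromosome 1. An unadjusted p under 0.05 was found for 12 of 40 in LMNB2, against 19.9% of all features. All of these were U1 features (12 of 15), with 0 of 12 for U2, 0 of 9 for U6 and 0 of 4 for the minor spliceosome. RNVU1-19 had 50.7 ± 5.42 CPM in LMNB2 and 26.7 ± 2.59 in GFP (log2 fold change 0.92, adjusted p = 0.0282), and RNVU1-1 had 53.6 ± 5.07 and 28.8 ± 3.14 CPM (0.90, adjusted p = 0.0316; all n = 3). U1 recognises the 5′ splice site. U1 copies are near-identical, so the split of reads between them is uncertain and they do not count as independent genes. The count of calls ran from 0 to 9 over the alternatives: it was 0 with total counts as the only scaling, with only the libraries compared and without any 1 LMNB2 library or LMNB1 replicate 1, 1 without GFP replicate 2, LMNA replicate 2 or LMNB1 replicate 2, 6 without GFP replicate 3, and 9 with DESeq2. The log2 fold changes were 0.84 to 1.12 for RNVU1-19 and 0.80 to 1.09 for RNVU1-1 over the same alternatives. Median log2 fold changes over the 40 genes were 0.25, 0.11 and 0.16 in LMNA, LMNB1 and LMNB2, against −0.05, −0.05 and −0.04 over all features. In LMNB2 the median was 0.67 for U1, 0.16 for U2, −0.11 for U6 and 0.26 for the minor spliceosome.

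Set against U5 within each library, the other snRNAs of the major spliceosome also had a higher mean in LMNB2. Relative to summed U5, the LMNB2 mean was above the GFP mean on the log2 scale by 0.97 for U1 (6 features named RNU1-1), by 0.47 for U2 (12 features, the RNA that pairs with the branch point) and by 0.24 for U6 (9 features, the pairing partner of U4). For U1 and U2 all 3 LMNB2 libraries were above the other 9, and for U6 they were not. Of all tested features, 9.67% had this separation relative to summed U5. Of the minor spliceosome RNAs, RNU4ATAC, the counterpart of U4, was above by 0.60 with LMNB2 above the other 9, and RNU11 and RNU12 were both above by 0.59 without such a separation. RNU6ATAC, the counterpart of U6, was at −0.03, with an SD of 0.56 between LMNB2 libraries at 0.0815 ± 0.035 CPM. The U4 difference of 0.64 lay within the range of these LMNB2 values. LMNA and LMNB1 stood at 0.28 and 0.31 for U1, 0.12 and 0.22 for U2, and 0.27 and 0.50 for RNU11. They stood at 0.05 and −0.21 for U6, −0.03 and 0.28 for RNU12, −0.01 and 0.10 for RNU4ATAC, and 0.15 and −0.04 for RNU6ATAC. The SD between GFP libraries was 0.53 for U1, 0.37 for U2, 0.11 for U6, 0.18 for RNU11, 0.52 for RNU12, 0.32 for RNU4ATAC and 0.34 for RNU6ATAC. A ratio of this kind shows unequal change and not which part of it moved.

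Small Cajal body RNAs guide the modification of snRNAs, and 4 listed guides of U4 or U5 were tested. SCARNA10, a guide for U5, rose in LMNB2, the only 1 of 4 to pass, where 2.66% of all features passed. It had 0.971, 0.911, 0.924 CPM in GFP, 0.896, 1.03, 0.906 with LMNA, 0.906, 0.814, 0.882 with LMNB1, and 1.18, 1.52, 1.52 with LMNB2. The LMNB2 libraries were above the other 9, with a log2 fold change of 0.58 and an adjusted p of 0.0489. For the looser split of LMNB2 above GFP alone, the share over all features was 12.1%. The edgeR joint tests of 4 groups and of 3 lamins gave adjusted p of 0.0475 and 0.0322, where 1.68% and 1.93% of features passed. The call was lost (adjusted p up to 0.207) in 11 of the 12 fits that left out 1 library, all but that without GFP replicate 3, while the log2 fold change stayed between 0.53 and 0.73. In LMNB2 the log2 fold changes of SCARNA5, SCARNA6 and SCARNA17 were −0.01, −0.45 and 0.48, with adjusted p of 0.984, 0.203 and 0.388.

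No window on a U4 or U5 gene passed the test between groups in ATAC (edgeR, 163786 tested windows). The count was 0 of 7 for LMNA, LMNB1 and LMNB2 against GFP, where 0.000611%, 0.00305% and 0.00244% of all windows passed. It was 0 of 7 in the joint tests of the 4 groups and of the 3 lamins, passed by 0.0421% and 0.0916% of windows. Unadjusted p under 0.05 was found for 0 of 7 in LMNA and LMNB1 and for 2 of 7 in LMNB2, where 5.72% of all windows had one. It was found for 2 of 7 in the joint test of the groups and 3 of 7 in that of the lamins, against 5.81% and 6.24% of windows. DESeq2 called 0 of 7 in each, with no adjusted p for any of the 7 in LMNB1.

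**Figure D4:**
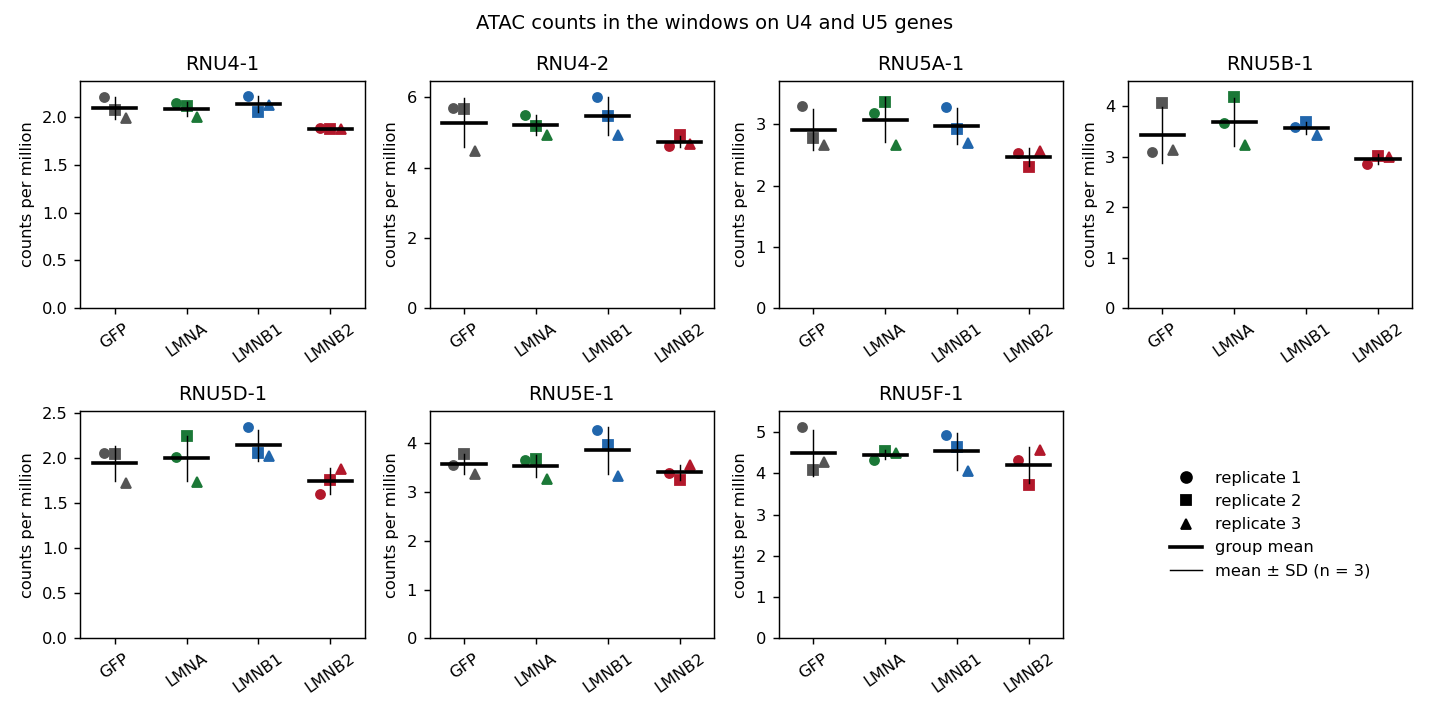
Scaled ATAC counts in CPM (vertical axes, from 0, a different range for each gene) in the window on each U4 and U5 gene, by group. Symbols are replicates, thick bars group means and thin lines mean ± SD (n = 3). For RNU4-1, RNU5A-1 and RNU5B-1 the 3 LMNB2 libraries are the lowest of the 12.

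All 7 windows had a lower mean in LMNB2 than in GFP, and all 7 a slightly higher one in LMNB1. Over all windows 49.1% had a positive log2 fold change in LMNB2 and 49.5% in LMNB1. Windows on the other snRNA genes leaned the same way. Of these, 28 of 43 were lower in LMNB2 (median −0.03) and 38 of 43 higher in LMNB1 (median 0.08). In LMNA 33 of 43 were higher too (median 0.06). All 12 windows named RNU2-1 were higher in LMNB1, and such copies do not count as independent genes. For the 7 windows the log2 fold changes in LMNB2 ran from −0.24 to −0.07, with a median of −0.15, against 0.00 over all windows. The range was 0.02 to 0.14, median 0.06, for LMNB1 and −0.02 to 0.10 for LMNA. With total counts as the only scaling RNU5E-1 and RNU5F-1 were at 0.04 and 0.01 in LMNB2. LMNB2 also had the lowest mitochondrial share of ATAC counts, whose part in these differences was not tested.

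The neighbours RNU5A-1 and RNU5B-1 had the lowest unadjusted p. The RNU5A-1 window had 3.30, 2.77, 2.67 CPM in GFP, 3.19, 3.37, 2.67 with LMNA, 3.29, 2.92, 2.70 with LMNB1, and 2.53, 2.30, 2.57 with LMNB2, a log2 fold change of −0.24 ± 0.10 in LMNB2 (unadjusted p = 0.0276, adjusted p = 0.862). The RNU5B-1 window had 3.09, 4.07, 3.14 CPM in GFP, 3.66, 4.18, 3.23 with LMNA, 3.59, 3.69, 3.44 with LMNB1, and 2.85, 3.02, 3.00 with LMNB2, a log2 fold change of −0.22 ± 0.10 (unadjusted p = 0.04, adjusted p = 0.864). In both windows the LMNB2 libraries were the 3 lowest. The joint test of the lamins gave unadjusted p of 0.00932 and 0.00699 and adjusted p of 0.515 and 0.479.

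RNU4-1 was the third window with this order. Its window had 2.22, 2.08, 1.99 CPM in GFP, 2.15, 2.12, 2.01 with LMNA, 2.23, 2.06, 2.13 with LMNB1, and 1.89, 1.88, 1.88 with LMNB2 (log2 fold change −0.15 ± 0.09, adjusted p = 0.907). LMNB2 was thus below GFP, and below all other 9 libraries, for 3 of 7 windows. Over all tested windows these shares were 4.72% and 0.497%. In density each of the 7 windows lay above at least 98.6% of tested windows. That background is therefore mostly sparser windows and not a like one. For RNU4-2, RNU5D-1, RNU5E-1 and RNU5F-1, LMNB2 overlapped GFP. The U4 genes therefore had positive log2 fold changes in small RNA and negative ones in ATAC in LMNB2, and none of the 4 values passed a test.

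Accessibility was concentrated on the genes, and it fell off unevenly to the 2 sides. Flanks of 500 bp begin 475 bp and end 975 bp from the feature interval. In GFP the RNU5F-1 window had 10.8 ± 1.33 CPM per kb, its upstream flank 0.173 ± 0.0738 and its downstream flank 1.26 ± 0.0896. RNU5A-1 had 7.01 ± 0.81 in the window, 0.2 ± 0.0644 upstream and 0.993 ± 0.0854 downstream. RNU5D-1 had 4.87 ± 0.483, 0.407 ± 0.0744 and 1.41 ± 0.345. The downstream flank held more counts than the upstream flank in 12 of 12 libraries for RNU4-1, RNU5A-1, RNU5D-1, RNU5E-1 and RNU5F-1, in 9 of 12 for RNU5B-1 and in 1 of 12 for RNU4-2. Summed over libraries the downstream to upstream ratio was 30.0 for RNU4-1, 13.4 for RNU5E-1, 7.10 for RNU5F-1, 6.80 for RNU5A-1, 4.81 for RNU5D-1, 1.18 for RNU5B-1 and 0.750 for RNU4-2. The downstream flank of RNU4-1 and the upstream flank of RNU4-2 overlap between the U4 genes. Their ratios therefore partly rest on the same stretch.

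In GFP, for both genes with the steepest ratio, the downstream flank was not less accessible than the gene beyond the SD between libraries. RNU5E-1 had 8.52 ± 0.498 CPM per kb in the window and 8.16 ± 1.07 in the downstream flank. RNU4-1 had 4.76 ± 0.268 in the window and a higher density, 7.43 ± 0.517, downstream. That flank of RNU4-1 lies between the U4 genes, 194 to 693 bp upstream of the RefSeq start of RNU4-2, the U4 gene with the higher RNA count. The upstream flank of RNU4-1 had 0.192 ± 0.0372.

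**Figure D5:**
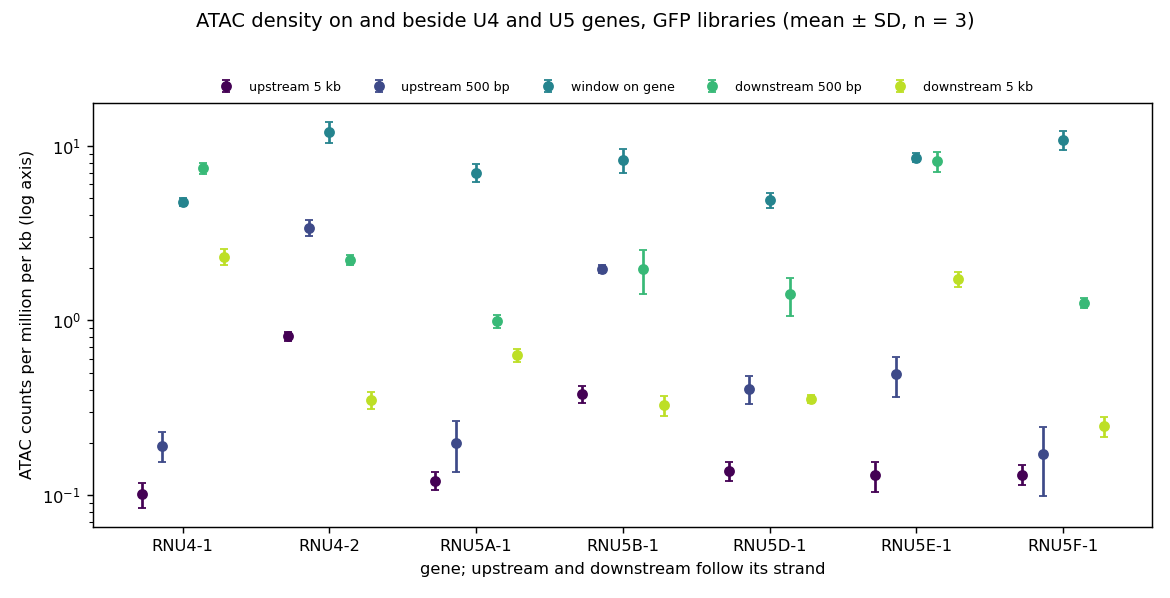
ATAC density in CPM per kb (vertical axis, logarithmic) in the GFP libraries, on the window of each U4 and U5 gene and in its 500 bp and 5 kb flanks, upstream and downstream by strand. Points are means and bars ± SD (n = 3). The window is the densest point for each gene but RNU4-1, whose 500 bp downstream flank is at 7.43 against 4.76 in the window, and for RNU5E-1 both are alike, at 8.16 and 8.52.

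Set against its own 5 kb flanks, no window separated a lamin group from GFP. The log2 ratio of window to flank density, minus that in GFP, ran from −0.22 to 0.03 in LMNB2, with 6 of 7 genes lower and a median of −0.06. LMNB1 values lay between −0.10 and 0.06 and LMNA values between −0.09 and 0.06. RNU5A-1 and RNU5B-1 both stood at −0.22 in LMNB2, where the SD between GFP libraries was 0.19 and 0.31. The 5 kb flanks of each U4 gene contain the other U4 gene. With flanks of 50 kb the LMNB2 libraries lay below all GFP libraries for RNU4-1 and RNU5A-1, at −0.07 and −0.20 relative to GFP on the log2 scale.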

How the data were processed

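The authors deposited raw counts per feature for the small RNA libraries and raw counts per window for the ATAC libraries, per the file headers. Values were whole numbers. Small RNA was enriched with a mirVana PARIS kit and ATAC libraries were made with an Active Motif kit, per the labels. GRCh38 is named in the submitters' processing notes. The aligner, counter, strand setting and treatment of multiply matching reads are not given in the sources used here. ATAC windows extend 125 bp beyond each feature, and flanks start 350 bp beyond the window.

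Each assay was fitted over its 12 libraries with edgeR 4.0.16 (filterByExpr, TMM scaling, robust quasi-likelihood, a mean per group) in R 4.3.3, with Benjamini-Hochberg adjustment over all tested features and a threshold of 0.05. Fold changes use a prior count of 2, intervals are 95%, and flank ratios a pseudocount of 0.5. The fits were tested on simulated data. CPM are TMM-scaled. Replicates differed by more than counting noise (chi-square per degree of freedom of at least 11.4 in small RNA and 3.18 in ATAC). Alternatives were DESeq2 1.42.0, other scalings and filters, only the libraries compared, no lncRNA features, other flanks, a block and each library left out.

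Every feature matching a name of a U4 or U5 gene was named. Among features that are not lncRNAs and lie at or above the median level, the features most alike were the 3 with the highest Pearson's r with the mean of each RNA. The genes and lists were chosen with earlier results of these data known. Promoter motifs were not analysed here.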

Additional observations from a re-analysis of the deposited data

How the results depend on the processing

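The count of U4 and U5 genes called was 0 of 7 in every comparison and joint test of both assays under every alternative run, and the lowest adjusted p of any gene was 0.0665 (RNU4-2 in small RNA of LMNB2 without GFP replicate 1). Of 833 log2 fold changes of these genes under alternatives, 57 changed sign, none of which had been called. Total counts as the only scaling moved the median of all small RNA features to −0.04 in LMNA, 0.11 in LMNB1 and 0.19 in LMNB2, and of all ATAC windows to 0.09, 0.19 and 0.11. Under it the small RNA log2 fold changes with changed sign were 0.01 for RNU5A-1 and RNU5B-1 in LMNA, 0.05, 0.16, 0.01 and 0.17 for RNU4-1, RNU4-2, RNU5A-1 and RNU5E-1 in LMNB1, and 0.13 for RNU5E-1 in LMNB2. In ATAC they were 0.09, 0.07, 0.07 and 0.07 for RNU4-1, RNU4-2, RNU5E-1 and RNU5F-1 in LMNA, and 0.04 and 0.01 for RNU5E-1 and RNU5F-1 in LMNB2. In small RNA of LMNA, RNU5A-1 was 0.01 with no count filter and RNU4-2 −0.01 without lncRNA features, and the ATAC value of RNU4-1 in LMNA was 0.00 when only the libraries compared were fitted. The cause was not tested.

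Leaving out each library in turn gave ranges that cross 0. In small RNA they were −0.23 to 0.23 for RNU5A-1 and −0.25 to 0.25 for RNU5B-1 in LMNA. In LMNB1 they were −0.20 to 0.02 for RNU4-1, −0.17 to 0.19 for RNU4-2, −0.40 to 0.09 for RNU5A-1, −0.49 to 0.04 for RNU5B-1, −0.03 to 0.28 for RNU5D-1 and −0.25 to 0.27 for RNU5E-1. In LMNB2 the range was −0.39 to 0.14 for RNU5E-1. In ATAC of LMNA they were −0.04 to 0.04 for RNU4-1, −0.13 to 0.04 for RNU4-2, −0.06 to 0.13 for RNU5D-1, −0.06 to 0.04 for RNU5E-1 and −0.07 to 0.09 for RNU5F-1. In ATAC of LMNB1 they were −0.01 to 0.07 for RNU4-1, −0.05 to 0.13 for RNU4-2, −0.05 to 0.13 for RNU5A-1, −0.01 to 0.20 for RNU5B-1 and −0.05 to 0.12 for RNU5F-1, and in LMNB2 −0.16 to 0.01 for RNU5F-1.

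The log2 U4 to U5 ratio of LMNB2 minus GFP was 0.46 with RNU4-1 alone for U4, 0.71 with RNU4-2 alone and 0.78 without RNU5E-1 in U5, all chosen after seeing the data, and 0.55 to 0.73 with 1 library left out. The replicate numbers did not pair the samples: over 18 same-numbered pairs the correlation of deviations was −0.04 to 0.23 in small RNA and −0.08 to 0.20 in ATAC, with 2 pairs over 0.1 in each. With the replicate block 0 of 7 genes were called in every comparison. The SCARNA10 call in LMNB2 was lost in 5 of 8 alternatives other than leaving out 1 library, the replicate block among them, with its log2 fold change at 0.53 to 0.81 over all alternatives (adjusted p = 0.0245 to 0.207). Other snRNA genes called in small RNA ran from 0 to 9 in the joint test of the 4 groups (1 as reported) and from 0 to 4 in that of the lamins (0 as reported). In ATAC DESeq2 called 1 of them in each joint test.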
